A study of Mus musculus with 45 samples.

Results

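The genes described here are Nampt, the other measured enzymes of NAD synthesis and the NAD-consuming sirtuins and Parp1 in the mouse heart. Members were the probe sets of the deposited table whose single annotated symbol was 1 of 9 listed genes, namely Nampt, Nmnat1, Nmnat3, Sirt1, Sirt2, Sirt3, Sirt5, Sirt7 and Parp1. The rule found 12 probe sets for 8 of the 9 genes, out of 22690 probe sets and 12394 genes in all, and Sirt5 was not analysed here because the annotation used lists no probe set for it alone. All 8 genes passed the filter on dim genes, which left 9295 genes in the tests. The list was drawn up with the difference of Nampt between RW-MS and RW-SC hearts known. For this reason, every difference of Nampt that uses RW-MS or RW-SC arrays is given as a description, and Nampt was tested only among the DIO groups.

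The study measured hearts of 45 male C57BL/6 mice, with 1 array per mouse. The diet-induced obese (DIO) groups were fed 60 kcal% fat for 9 weeks before exposure, beginning at 6 weeks of age, and the regular weight (RW) groups about 5 kcal% fat. At 15 weeks of age they began nose-only exposure to sidestream smoke (SS, from the burning tip), mainstream smoke (MS, the smoke a smoker inhales) or filtered air (SC, the sham control), 5 h a day with 8 exposures over 2 weeks, and hearts were taken the day after. The groups were DIO-SS (8 mice), DIO-MS (6), DIO-SC (8), RW-SS (7), RW-MS (8) and RW-SC (8). The labels name no transgene or mutation, all mice went through the nose-only procedure, and each heart was labelled as a biological replicate. An LPS study is mentioned once in the labels, but cigarette smoke is what the titles and exposure text name and was taken as the exposure.

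Heart muscle genes marked the tissue on every array, with a mean over 8 of 8 listed genes between 13.91 and 14.00 log2 units. Hearts RW-MS 2, 6 and 8 stood apart by low atrial transcripts, and the atrial list (9 of 9 genes) ranged from 6.63 to 10.89 in RW-MS and from 9.86 to 11.01 log2 units in RW-SC hearts. Array RW-SS 7 had a Gapdh 3' minus 5' difference of 0.94 log2 units, a sign of RNA breakdown, against at most 0.40 on the other arrays. Differences of the members that use these arrays are given with and without them where a call was made. In whole hearts, fewer cells of a type and less RNA per cell cannot be told apart.

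NAD carries electrons in fuel oxidation and is used up by enzymes that cleave it, among them the sirtuins, which remove acyl groups from proteins, and Parp1, which attaches ADP-ribose chains at DNA breaks. Cleavage releases nicotinamide, and Nampt, the rate-limiting enzyme of the salvage route, turns it into nicotinamide mononucleotide (NMN). Nmnat1 in the nucleus and Nmnat3 in mitochondria then join an adenylyl group to NMN, which completes NAD. The heart relies largely on this route, and Nampt is a known output gene of the circadian clock, whose factors Clock and Arntl bind E-boxes and whose repressor Nr1d1 (Rev-erb alpha) binds a hexamer shared with ROR receptors.

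Promoter sequences from RefSeq (GRCm38.p6) were found for all 9 listed genes, in 11 windows of 250 bases before to 50 bases after a transcription start. They are shown for Nampt, the member most unlike between smoke and air, for Nmnat1, which moved the other way, and for Sirt1, the member with most E-boxes. The motifs searched on both strands were the E-box CACGTG, present in 7.15% of all 32851 windows, and the hexamer AGGTCA, present in 16.3%. Capitals mark these motifs, and all 3 windows are written 5' to 3' on the gene's strand.
Nampt: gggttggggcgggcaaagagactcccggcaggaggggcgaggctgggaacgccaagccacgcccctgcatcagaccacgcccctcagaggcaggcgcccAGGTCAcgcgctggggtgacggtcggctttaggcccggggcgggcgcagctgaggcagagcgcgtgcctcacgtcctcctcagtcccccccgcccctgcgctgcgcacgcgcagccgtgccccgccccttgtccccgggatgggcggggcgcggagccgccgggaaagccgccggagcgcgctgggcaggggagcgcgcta
Nmnat1: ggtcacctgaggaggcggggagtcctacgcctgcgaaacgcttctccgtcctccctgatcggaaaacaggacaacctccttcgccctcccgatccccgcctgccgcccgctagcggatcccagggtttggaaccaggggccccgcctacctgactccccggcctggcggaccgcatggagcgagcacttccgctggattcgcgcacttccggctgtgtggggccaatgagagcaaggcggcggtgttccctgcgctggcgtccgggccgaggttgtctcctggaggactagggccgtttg
Sirt1: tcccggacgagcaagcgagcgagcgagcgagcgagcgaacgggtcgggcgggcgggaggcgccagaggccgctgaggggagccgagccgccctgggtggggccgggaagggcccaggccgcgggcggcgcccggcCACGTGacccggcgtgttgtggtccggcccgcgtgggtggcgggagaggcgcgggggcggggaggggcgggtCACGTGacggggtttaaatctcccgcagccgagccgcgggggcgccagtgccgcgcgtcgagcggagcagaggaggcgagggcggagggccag
The Nampt window (chr12:32820085-32820384, plus strand) held 1 AGGTCA beginning 151 bases before the start and no CACGTG. The Nmnat1 window (chr4:149485123-149485422, minus strand) held neither, as did the second Nmnat1 window. The Sirt1 window (chr10:63338986-63339285, minus strand) held CACGTG beginning 115 and 43 bases before the start. Over the 9 listed genes, 2 had an E-box (Sirt1 and Parp1) and 3 had the hexamer (Nampt, Nmnat3 and Sirt5) in a window. A match describes letters only, and AGGTCA is a half-site that many nuclear receptors share.

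Nampt was higher in hearts of obese mice after either smoke than after air. On its brighter probe set (1417190_at) the lowest, median and highest log2 levels were 10.47, 10.61 and 10.71 in DIO-SS hearts, 10.22, 10.37 and 10.56 in DIO-MS hearts, and 9.97, 10.11 and 10.19 in DIO-SC hearts. Every smoke-exposed obese heart thus lay above every obese heart in air. The log2 difference was 0.51 ± 0.07 (SE) for DIO-SS against DIO-SC, a 1.42-fold higher level (limma adjusted p = 9.07e-07, 8 of 8 arrays above all 8 controls). It was 0.30 ± 0.07 for DIO-MS against DIO-SC, or 1.23-fold (limma adjusted p = 0.0137, 6 of 6 arrays above all controls). Without DIO-MS 6, the highest array of its group, the mainstream difference was 0.26 and did not pass (limma adjusted p = 0.0562), and with the mean of both Nampt probe sets it did not pass either (0.0906). Sidestream and mainstream smoke differed by 0.21 ± 0.07 in obese mice and overlapped, which did not pass the threshold of 0.05 (limma adjusted p = 0.0919) but did without DIO-MS 6 (0.25, 0.0385).

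In regular weight mice, where the values served to choose Nampt, the levels were 10.38, 10.72 and 11.00 in RW-SS hearts, 10.29, 10.66 and 10.77 in RW-MS hearts, and 9.88, 10.09 and 10.23 in RW-SC hearts (lowest, median and highest). No smoke-exposed heart overlapped with air in this diet. The differences were 0.63 ± 0.07 log2 units for RW-SS against RW-SC (1.55-fold) and 0.53 ± 0.07 for RW-MS against RW-SC (1.44-fold). Without RW-MS 2, 6 and 8 the mainstream difference was 0.45, and without RW-SS 7, the lowest sidestream heart, the sidestream difference was 0.69. RW-SS and RW-MS hearts overlapped and differed by 0.11 ± 0.07. Obese and regular weight mice in air differed by -0.01 ± 0.07, a value whose sign turned under other scalings (0.05 with the mean of both probe sets and 0.02 after a further quantile normalization). Taken as the smoke effect in obese mice less that in regular weight mice, the descriptive difference was -0.13 ± 0.10 for sidestream and -0.23 ± 0.10 for mainstream smoke. The mainstream value was -0.16 without RW-MS 2, 6 and 8 and -0.28 without RW-MS 7. The sidestream value was -0.19 without RW-SS 7 and -0.03 without RW-SS 2 and 4. With the red cell list described below as a covariate, the sidestream value was -0.06.

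**Figure D1:**
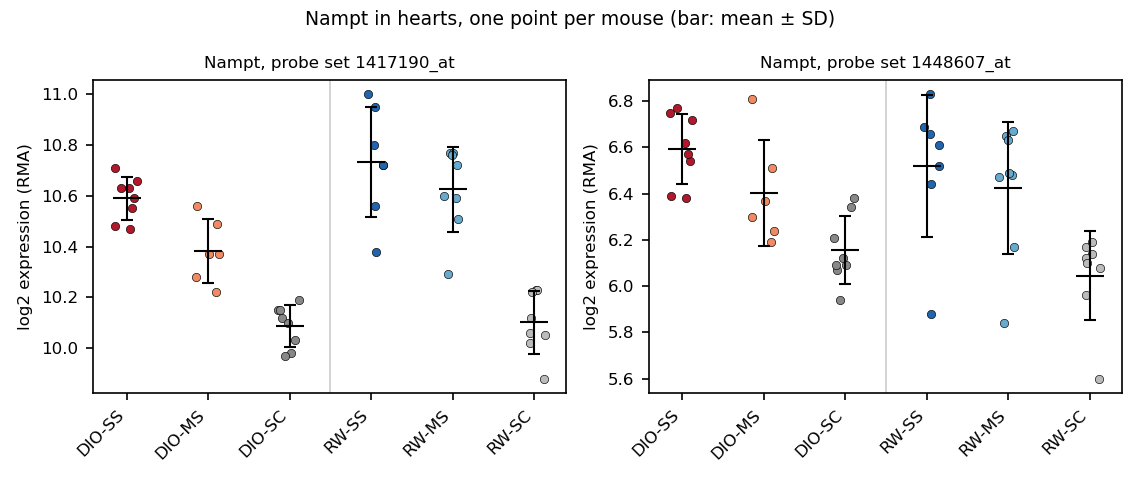
Nampt in each heart, by group, on its 2 probe sets (vertical axis: log2 RMA expression, points: single mice, bars: mean ± SD). On the probe set 1417190_at all smoke-exposed hearts lie above all air-exposed hearts of the same diet, and on 1448607_at the groups touch or overlap.

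The dimmer Nampt probe set (1448607_at) showed the same direction, with groups that touched or overlapped. Its levels were 6.38, 6.59 and 6.77 in DIO-SS hearts, 6.19, 6.33 and 6.81 in DIO-MS hearts and 5.94, 6.11 and 6.38 in DIO-SC hearts (lowest, median and highest). When every probe set was tested by itself, its difference was 0.44 ± 0.11 for DIO-SS against DIO-SC (limma adjusted p = 0.00295) and 0.25 ± 0.12 for DIO-MS against DIO-SC (0.336, not past the threshold). In regular weight mice it read 5.88, 6.61 and 6.83 in RW-SS hearts, 5.84, 6.48 and 6.67 in RW-MS hearts and 5.60, 6.11 and 6.19 in RW-SC hearts. Arrays RW-SS 7 and RW-MS 7 were the low points of the smoke groups on both Nampt probe sets.

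Group means of Nampt ran in the order RW-SS (10.73), RW-MS (10.63), DIO-SS (10.59), DIO-MS (10.38), RW-SC (10.10) and DIO-SC (10.08 log2 units). Among neighbours in that order, the gaps between DIO-SS and DIO-MS (0.21) and between DIO-MS and RW-SC (0.28) exceeded the larger SD of the pair (0.13 for both). The other neighbours did not differ beyond their spread.

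Nmnat1, the nuclear enzyme of the last step, was lower after sidestream smoke in regular weight mice. On probe set 1425773_s_at the levels were 6.59, 6.72 and 6.98 in RW-SS hearts, 6.78, 7.07 and 7.20 in RW-MS hearts and 7.13, 7.20 and 7.39 in RW-SC hearts (lowest, median and highest). All 7 sidestream hearts lay below all 8 hearts in air, while the mainstream hearts lay between and overlapped with both. Nmnat1 fell by 0.46 ± 0.05 log2 units in RW-SS against RW-SC hearts (limma adjusted p = 4.17e-08), a 1.37-fold lower level, and by 0.30 ± 0.05 in RW-SS against RW-MS hearts (limma adjusted p = 0.000815). The difference between RW-MS and RW-SC, -0.15 ± 0.05, did not pass (limma adjusted p = 0.0654), although 8 of 8 mainstream hearts lay below the mean in air. It passed without RW-MS 2, RW-MS 4 or RW-SS 2 (limma adjusted p = 0.0376 to 0.0482). Without RW-SS 7 the sidestream difference was -0.43 (limma adjusted p = 2.47e-07). The difference between RW-SS and RW-MS hearts was -0.28 without RW-MS 2, 6 and 8 (limma adjusted p = 0.00883) and -0.28 without RW-SS 7 (0.00328), and it did not pass when the fit held only these groups (0.0949).

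In obese mice Nmnat1 levels lay closer together. They were 7.07, 7.16 and 7.22 in DIO-SS hearts, 7.05, 7.14 and 7.32 in DIO-MS hearts and 7.14, 7.31 and 7.44 in DIO-SC hearts. The sidestream difference was -0.13 ± 0.05 (limma adjusted p = 0.0445) with overlap, and it did not pass when any 1 of DIO-SC 1, 3, 4, 6 and 7 or DIO-SS 1 to 7 was left out (limma adjusted p = 0.0504 to 0.0969). The second Nmnat1 probe set, described next, gave -0.03 there (limma adjusted p = 0.685). The mainstream difference of -0.14 ± 0.06 did not pass (0.17). The effect of sidestream smoke itself differed between the diets, by 0.32 ± 0.08 log2 units as DIO minus RW (limma adjusted p = 0.00188), so the fall was smaller in obese mice, and by 0.30 without RW-SS 7 (0.00357). In the order of means, DIO-SC, RW-SC, DIO-SS, DIO-MS, RW-MS and RW-SS, the gap between RW-MS and RW-SS (0.30) alone exceeded the larger SD of the neighbours (0.14).

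The second Nmnat1 probe set (1429819_at) gave a smaller sidestream difference in regular weight mice and a larger mainstream one. Its levels were 6.67, 6.85 and 6.98 in RW-SS hearts, 6.72, 6.89 and 7.09 in RW-MS hearts and 7.0, 7.10 and 7.21 in RW-SC hearts. Tested by itself it differed by -0.26 ± 0.05 in RW-SS against RW-SC (limma adjusted p = 0.000299) and by -0.21 ± 0.05 in RW-MS against RW-SC (0.0101). The probe sets therefore disagreed on RW-SS against RW-MS, where this one gave -0.05 (0.624). They had one sign for the sidestream interaction, 0.23 ± 0.07 here (0.0193). The suffix of 1425773_s_at marks probes that can match more than 1 transcript, so its level may hold another RNA.

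Nmnat3, the mitochondrial counterpart, passed in none of the 9 comparisons. Its means were 7.51, 7.50 and 7.40 in DIO-SS, DIO-MS and DIO-SC hearts and 7.50, 7.46 and 7.38 in RW-SS, RW-MS and RW-SC hearts (log2, SD 0.06 to 0.19). The means after smoke were above air in both diets, but the groups overlapped.

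Sirt3, the main deacetylase of mitochondria, was lower after sidestream smoke in regular weight mice. Its levels were 8.24, 8.46 and 8.63 in RW-SS hearts, 8.56, 8.73 and 8.91 in RW-MS hearts and 8.45, 8.78 and 8.87 in RW-SC hearts. Of the 7 sidestream hearts, 7 lay below the mean in air and 3 below every heart in air. Sirt3 fell by 0.31 ± 0.07 log2 units in RW-SS against RW-SC hearts (1.24-fold lower, limma adjusted p = 0.000513) and by 0.30 ± 0.07 in RW-SS against RW-MS hearts (0.00502). Without RW-SS 7 the first difference was again -0.31 (limma adjusted p = 0.000868). The second was -0.27 without RW-MS 2, 6 and 8 (limma adjusted p = 0.0304) and -0.30 without RW-SS 7 (0.0102), and it did not pass when the fit held only these groups (0.0853).

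In obese mice Sirt3 read 8.67, 8.74 and 8.90 in DIO-SS hearts, 8.29, 8.57 and 8.83 in DIO-MS hearts and 8.46, 8.66 and 8.81 in DIO-SC hearts. Its differences did not pass there, at 0.08 ± 0.06 for DIO-SS against DIO-SC (limma adjusted p = 0.318) and 0.17 ± 0.07 for DIO-SS against DIO-MS (0.132). The second difference passed without DIO-MS 6 (0.22, limma adjusted p = 0.0353). The sidestream effect differed between the diets by 0.39 ± 0.09 log2 units as DIO minus RW (limma adjusted p = 0.00173), with opposite signs of the mean in obese and regular weight mice. Without RW-SS 7 this was 0.40 (limma adjusted p = 0.00207). No neighbours in the order of group means differed beyond their spread.

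**Figure D2:**
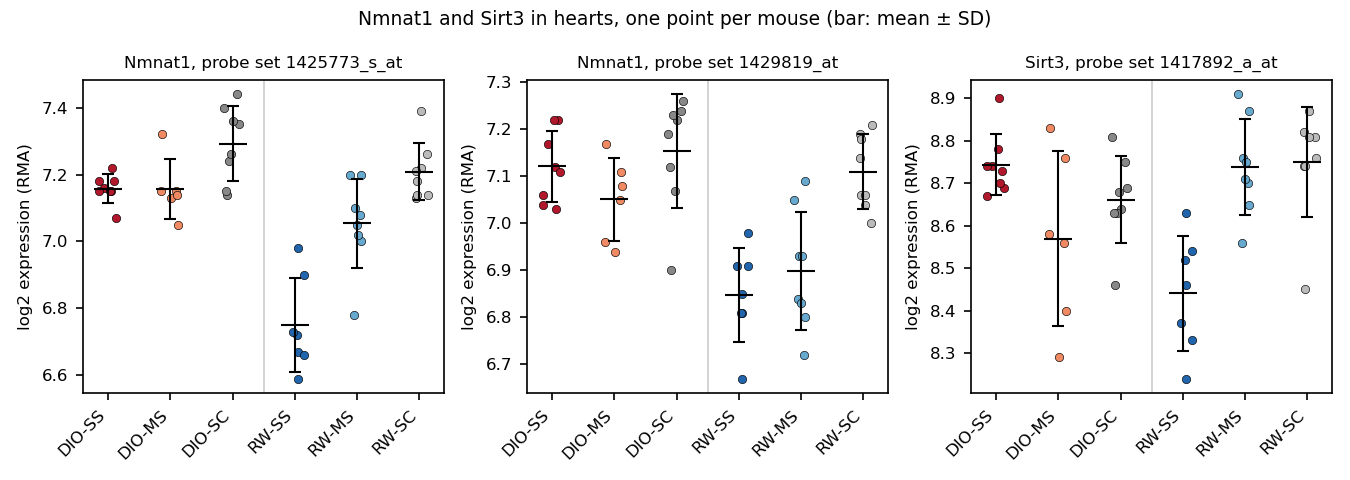
Nmnat1 on its 2 probe sets and Sirt3 in each heart, by group (vertical axis: log2 RMA expression, points: single mice, bars: mean ± SD). RW-SS hearts have the lowest mean in each panel, and on Nmnat1 probe set 1425773_s_at all of them lie below all RW-SC hearts.

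Red cell transcripts were higher in the RW-SS group in which Nmnat1 and Sirt3 fell, and less so in RW-MS hearts. The red cell list (5 of 8 genes with a probe set), as the mean difference from each gene's average over all arrays, ran from 0.04 to 1.10 in RW-SS hearts and from -0.29 to -0.10 in RW-SC hearts, with no overlap. In RW-MS hearts it ran from -0.14 to 0.42 and overlapped with RW-SC. There Nmnat1 differed from RW-SC by -0.15 ± 0.05 (limma adjusted p = 0.0654) and Sirt3 by -0.01 ± 0.06 (0.948). The red cell list ran from -0.35 to 0.16 in DIO-SS hearts and from -0.32 to -0.05 in DIO-SC hearts. With the list mean as a covariate, the RW-SS difference of Nmnat1 was -0.43 (limma adjusted p = 0.000116), and that of Sirt3 was -0.25 and did not pass (0.0606). Without RW-SS 2 and 4, an alternative added after seeing the data, the differences were -0.50 for Nmnat1 (limma adjusted p = 7.76e-08) and -0.33 for Sirt3 (0.000937). The interactions of both genes passed in these settings. RW-SS 4 and 2 were also the hearts with the highest Nampt levels (11.00 and 10.95). As a description, Nampt in RW-SS against RW-SC differed by 0.56 with the covariate and by 0.54 without RW-SS 2 and 4. Against RW-MS hearts the Nampt difference was 0.07 and 0.01 in these 2 settings.

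Sirt2, the mainly cytosolic sirtuin, differed with diet in air. Its levels were 9.34, 9.47 and 9.60 in DIO-SC hearts and 9.52, 9.58 and 9.65 in RW-SC hearts, and 7 of the 8 obese hearts lay below every regular weight heart. It fell by 0.11 ± 0.04 log2 units in DIO-SC against RW-SC hearts (limma adjusted p = 0.0281), a difference that did not pass without any 1 of DIO-SC 2, DIO-SC 4, RW-SC 3 and RW-SC 5 (limma adjusted p = 0.0543 to 0.0718), nor after a further quantile normalization (0.197). After sidestream smoke in obese mice it was 9.53, 9.55 and 9.67 in DIO-SS hearts, which was 0.09 ± 0.04 above DIO-SC (limma adjusted p = 0.0426) with overlap. That difference did not pass without any 1 of DIO-SS 1, 2, 4, 5 and 7 or DIO-SC 1, 2, 3, 4, 5 and 8 (limma adjusted p = 0.0506 to 0.105), and it was 0.03 after a further quantile normalization (0.56).

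Sirt1, the nuclear deacetylase whose promoter window held 2 E-boxes, had means above air in all 4 smoke groups, and none of these differences passed. The log2 levels were 6.85, 6.99 and 7.11 in DIO-SS hearts, 6.97, 7.04 and 7.07 in DIO-MS hearts and 6.73, 6.88 and 7.01 in DIO-SC hearts. The differences were 0.15 ± 0.05 for DIO-MS against DIO-SC (limma adjusted p = 0.0758) and 0.12 ± 0.05 for DIO-SS against DIO-SC (0.0547). In regular weight mice, RW-SS hearts differed from RW-SC hearts by 0.12 ± 0.05 (limma adjusted p = 0.0566). Each of these lies so near the threshold that it passed when some single array was left out, with adjusted p down to 0.049, 0.0288 and 0.0343. Other settings moved them either way. With array weights, which raised the calls over all genes too, DIO-MS (0.16, limma adjusted p = 0.0254) and DIO-SS (0.13, 0.00946) passed. Without RW-MS 2, 6 and 8, DIO-SS (0.12, limma adjusted p = 0.0409) and RW-SS (0.12, 0.0418) passed. With the red cell list mean as a covariate the DIO-SS difference was 0.11 (limma adjusted p = 0.0725). The RW-SS difference was 0.04 with the red cell list mean as a covariate (limma adjusted p = 0.709) and 0.08 without RW-SS 2 and 4 (0.279). The DIO-MS difference without DIO-MS 6 was 0.15 (limma adjusted p = 0.146).

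Sirt7, the nucleolar sirtuin, and Parp1 passed in no comparison. Sirt7 means were 6.53, 6.40 and 6.37 in DIO-SS, DIO-MS and DIO-SC hearts and 6.44, 6.52 and 6.51 in RW-SS, RW-MS and RW-SC hearts (log2, SD 0.08 to 0.23). Its difference between DIO-SS and DIO-SC was 0.16 ± 0.09 (limma adjusted p = 0.16), and its sidestream interaction was 0.23 ± 0.12 (0.155). Parp1 means lay between 8.06 and 8.19 in all 6 groups, and none of its 3 probe sets passed.

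**Figure D3:**
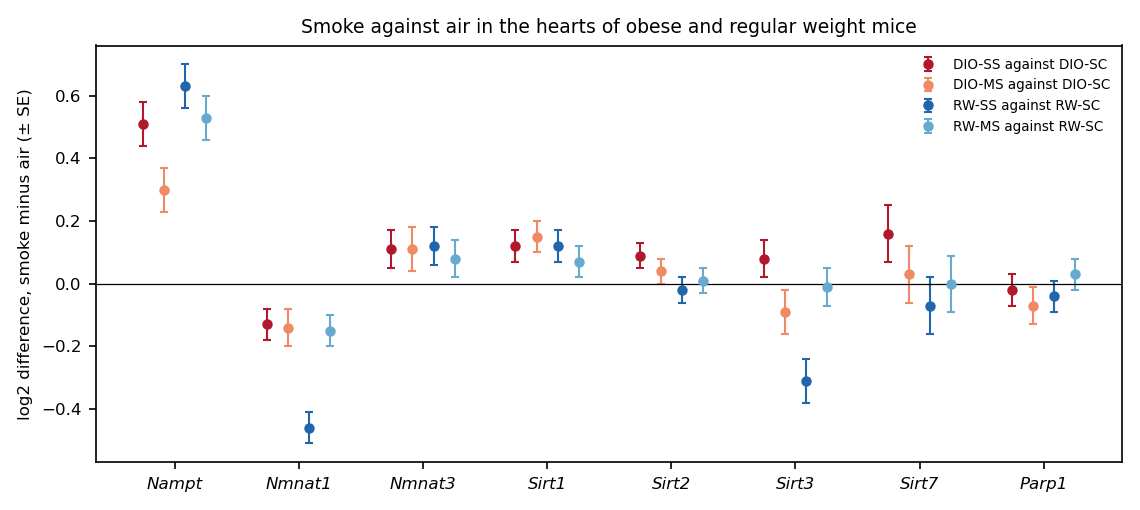
Log2 difference of smoke minus air for the 8 measured genes in obese and regular weight mice (points: fitted differences, bars: SE). Nampt lies at 0.30 to 0.63 in all 4 comparisons, and Nmnat1 (-0.46) and Sirt3 (-0.31) have their lowest values for RW-SS against RW-SC.

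Counted over the 8 measured genes, 2 were higher (Nampt, Sirt2) and 1 lower (Nmnat1) in DIO-SS against DIO-SC, a comparison in which 31.8% of all genes tested passed. For DIO-MS against DIO-SC 1 was higher (Nampt) and 0 lower, with 4.55% of all genes past the threshold. DIO-SS against DIO-MS had 0 by limma, with 2 genes at an unadjusted p under 0.05 and 2.55% of all genes past the threshold. The median log2 difference of the 8 genes was 0.10 for DIO-SS and 0.03 for DIO-MS against DIO-SC, beside 0.04 and 0.01 for all genes tested. Nampt was chosen by its difference between RW-MS and RW-SC hearts, so in comparisons that use regular weight arrays the other 7 genes were counted. For RW-SS against RW-SC 0 of them were higher and 2 lower (Nmnat1, Sirt3), with 24.6% of all genes past the threshold. RW-MS against RW-SC had 0 by limma, with 1 gene at an unadjusted p under 0.05 and 6.86% of all genes. RW-SS against RW-MS had 2 lower genes (Nmnat1, Sirt3), with 5.82% of all genes. In the diet comparison DIO-SC against RW-SC 0 were higher and 1 was lower (Sirt2), with 20.3% of all genes. The sidestream interaction had 2 (Nmnat1, Sirt3), both with the DIO effect above the RW effect, with 28.4% of all genes. The mainstream interaction had 0 by limma, with 0 genes at an unadjusted p under 0.05 and 0.226% of all genes. The median log2 difference of the 7 genes was -0.04 for RW-SS and 0.01 for RW-MS against RW-SC, beside 0.00 for all genes tested in both. Comparisons with one diet share their air arrays.

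Other genes of NAD metabolism were read from a list of 44, of which 33 had a probe set and 23 were tested. In DIO-SS against DIO-SC 8 were higher and 4 lower (median 0.08), or 52.2% beside 31.8% of all genes tested, whose 2140 higher and 820 lower calls became 1074 and 1009 after a further quantile normalization. The 4 with the smallest adjusted p were Aox1, which oxidises methylated nicotinamide (0.43 ± 0.06, limma adjusted p = 2.03e-06), Parp8 of the PARP family (0.30 ± 0.05, 1.92e-05), Nt5e, the ectonucleotidase that acts on NMN (-0.37 ± 0.08, 0.000348), and Noct, a phosphatase of NADP (-0.38 ± 0.08, 0.000483). In DIO-MS against DIO-SC 3 were higher and 0 lower (median 0.07, 13% beside 4.55% of all genes tested), namely Aox1 (0.25 ± 0.07, limma adjusted p = 0.0186), Art3 (0.17 ± 0.05, 0.0284) and Art5 (0.29 ± 0.08, 0.036), the last 2 of the ADP-ribosyltransferase family. These 3 calls hung on single arrays, since Aox1 did not pass without DIO-MS 5 or 6 (limma adjusted p = 0.0524 to 0.0691), Art3 without DIO-MS 1, 2 or 3 or DIO-SC 6 (0.0554 to 0.0867), nor Art5 without DIO-MS 5 or 6 or DIO-SC 2, 4 or 5 (0.0514 to 0.146).

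For RW-SS against RW-SC 4 genes of the list were higher and 0 lower (median 0.06, 17.4% beside 24.6% of all genes tested), and they were Aox1 (0.33 ± 0.06, limma adjusted p = 0.000132), Art5 (0.29 ± 0.08, 0.00665), Art4 (0.20 ± 0.07, 0.023) and Nt5e (0.22 ± 0.08, 0.035). With the red cell list as a covariate Art4 (0.18, limma adjusted p = 0.193), Art5 (0.28, 0.0999) and Nt5e (0.09, 0.638) did not pass. Art4 did not pass without RW-SS 4 or 5 or RW-SC 5 (limma adjusted p = 0.0508 to 0.0659), nor Nt5e without RW-SS 2, 4 or 6 or RW-SC 3, 4, 5 or 6 (0.0541 to 0.0837). For RW-MS against RW-SC 2 were higher and 0 lower (median 0.05, 8.7% beside 6.86% of all genes tested), which were Aox1 (0.41 ± 0.06, limma adjusted p = 1.54e-05) and Art5 (0.26 ± 0.08, 0.0333). Without RW-MS 2, 6 and 8 Art5 did not pass (limma adjusted p = 0.125) and Aox1 did (0.00101). Art5 also did not pass without any 1 of RW-MS 2, 3, 4 and 8 or RW-SC 1, 3 and 7 (limma adjusted p = 0.051 to 0.0987).

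Aox1 passed in all 4 comparisons of smoke with air. Its lowest, median and highest log2 levels were 9.07, 9.22 and 9.52 in DIO-SS hearts, 8.95, 9.07 and 9.22 in DIO-MS hearts and 8.73, 8.82 and 8.93 in DIO-SC hearts. In regular weight mice they were 8.66, 8.95 and 9.01 in RW-SS hearts, 8.65, 8.96 and 9.15 in RW-MS hearts and 8.37, 8.55 and 8.66 in RW-SC hearts. It was also higher with the diet in air, by 0.29 ± 0.06 in DIO-SC against RW-SC (limma adjusted p = 0.000595), with no overlap.

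The diet in air gave 2 higher and 3 lower genes of this list (median -0.05, 21.7% beside 20.3% of all genes tested). Beside Aox1 they were Nt5e (0.25 ± 0.08, limma adjusted p = 0.0183), Parp4 (-0.19 ± 0.05, 0.00353) and Parp2 (-0.15 ± 0.04, 0.00723). The last was Art3 (-0.13 ± 0.04, limma adjusted p = 0.0382), named after its values were seen. Nt5e did not pass without DIO-SC 4 (0.21, limma adjusted p = 0.0505), and Parp2 did not pass after a further quantile normalization (-0.10, 0.0898). Neither SS against MS comparison (1 gene at an unadjusted p under 0.05 in RW and 6 in DIO mice) nor the mainstream interaction (0 such genes) had any gene of the list past the limma threshold.

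The sidestream interaction had 3 genes of the list with the DIO effect above the RW effect and 2 below it (21.7% beside 28.4% of all genes tested). Nt5e differed by -0.59 ± 0.11 (limma adjusted p = 0.00028), lower after sidestream smoke in obese and higher in regular weight mice. Its levels were 5.62, 5.80 and 6.00 in DIO-SS hearts against 5.91, 6.15 and 6.40 in DIO-SC hearts, and 5.85, 6.14 and 6.32 in RW-SS hearts against 5.78, 5.91 and 6.06 in RW-SC hearts. The others were Haao of synthesis from tryptophan (-0.37 ± 0.11, limma adjusted p = 0.00865), Parp8 (0.24 ± 0.07, 0.0109) and Parp2 (0.17 ± 0.06, 0.0275), plus Tnks2 (0.14 ± 0.05, 0.0473), named after its values were seen. Parp2 did not pass without DIO-SC 5 or RW-SS 5 (0.14 for both, limma adjusted p = 0.0521 to 0.0552).

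The genes whose pattern was most like Nampt were ranked by Pearson correlation over the 45 arrays, which share the smoke and diet groups. The highest were Rit1 (r = 0.92), BC005537 (0.90), Slc46a3 (0.88), Rbl2 (0.88) and Gpcpd1 (0.87), and the lowest were Klhdc8a (-0.88), Srsf2 (-0.85) and Nr1d1 (-0.84). After group means were subtracted the values were 0.68, 0.44, 0.58, 0.48 and 0.69 for the first 5 and -0.45, -0.36 and -0.08 for the last 3. The inverse pattern of Nampt and Nr1d1 thus lay between groups, with little of it among hearts of one group.

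Nr1d1 levels were 6.26, 6.53 and 6.87 in DIO-SS hearts, 6.79, 6.99 and 7.11 in DIO-MS hearts and 7.13, 7.23 and 7.39 in DIO-SC hearts. It fell by 0.67 ± 0.08 log2 units in DIO-SS against DIO-SC hearts (limma adjusted p = 6.85e-08) and by 0.42 ± 0.08 in DIO-SS against DIO-MS hearts (0.00643), while the difference of -0.25 ± 0.08 in DIO-MS against DIO-SC hearts did not pass (0.074). Its effects, set against differences from RW-SC of -1.15 ± 0.08 in RW-SS and -0.90 ± 0.08 in RW-MS hearts, differed between the diets by 0.47 ± 0.11 for sidestream (limma adjusted p = 0.00212) and 0.65 ± 0.11 for mainstream smoke (0.0027). Dbp, a clock output factor, differed from air by -1.03 ± 0.08 in RW-SS (limma adjusted p = 1.29e-12) and by -0.49 ± 0.08 in DIO-SS hearts (1.19e-05). Its sidestream interaction of 0.54 ± 0.11 (limma adjusted p = 0.000697) was thus a smaller fall in obese mice. After mainstream smoke Dbp differed by -0.33 ± 0.08 in RW (limma adjusted p = 0.00543) and by 0.04 ± 0.08 in DIO mice (0.881). The RW-MS call was lost with the red cell covariate (-0.27, 0.0702). Dbp fell by 0.53 ± 0.08 in DIO-SS against DIO-MS hearts (limma adjusted p = 0.000726) and by 0.70 ± 0.08 in RW-SS against RW-MS hearts (5.24e-07). Per2, a clock repressor, fell by 0.25 ± 0.09 in DIO-SS against DIO-SC hearts (limma adjusted p = 0.025), a call lost without any 1 of 5 arrays (0.0514 to 0.0672). In air Per2 was higher in DIO-SC than in RW-SC hearts, a call kept in all settings run. With single arrays left out that difference was 0.26 to 0.36 (limma adjusted p at most 0.0284). Arntl, the partner of Clock, was higher in RW-SS than in RW-MS hearts by 0.47 ± 0.13 (limma adjusted p = 0.0221), a call lost without any 1 of 3 arrays (0.0526 to 0.0587) and without RW-MS 2, 6 and 8 (0.0704). The clock gene Clock, which with Arntl is known to drive Nampt, was lower in both smoke groups of regular weight mice, with a difference of -0.30 ± 0.05 in RW-SS hearts (limma adjusted p = 1.86e-05) and -0.36 ± 0.05 in RW-MS hearts (2.37e-06) against RW-SC. Its effects differed between the diets by 0.30 ± 0.07 for sidestream (limma adjusted p = 0.00181) and 0.34 ± 0.07 for mainstream smoke (0.0186). The mainstream value did not pass without DIO-MS 5 (limma adjusted p = 0.0536) or without RW-MS 2, 6 and 8 (0.0911). Nor did it pass with the mean of all Clock probe sets (0.24, limma adjusted p = 0.0787), the compared groups alone (0.0769) or the atrial covariate (0.0509). Foxo3, a forkhead factor known as a sirtuin substrate, was higher in DIO-SS (0.20 ± 0.06, limma adjusted p = 0.00766), DIO-MS (0.25 ± 0.06, 0.011) and RW-SS hearts (0.26 ± 0.06, 0.00116) than in air. The DIO-SS call of Foxo3 was lost with the mean of all its probe sets (0.09, limma adjusted p = 0.12) and after a further quantile normalization (0.14, 0.0602), and the RW-SS call with the red cell covariate (0.22, 0.0693). Foxo1 was higher in DIO-SS than in DIO-SC hearts (0.23 ± 0.05, limma adjusted p = 0.000553) and passed in no other comparison. It kept this call in all settings run, with values from 0.12 to 0.26. Sod2, the mitochondrial dismutase that Sirt3 deacetylates, and Ppargc1a, the coactivator that Sirt1 deacetylates, passed in no comparison.

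**Figure D4:**
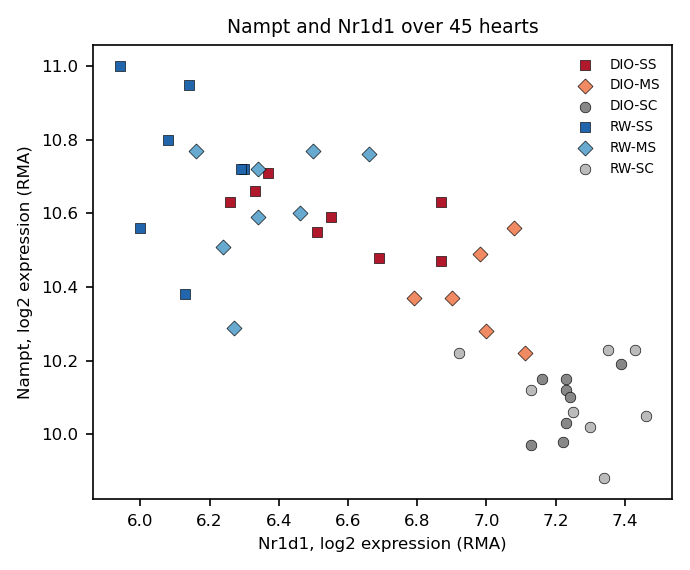
Nampt against Nr1d1 in 45 hearts (both axes: log2 RMA expression, symbols: groups). Hearts in air lie at low Nampt and high Nr1d1, smoke-exposed hearts at higher Nampt and mostly lower Nr1d1, and r within groups is -0.08.

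Among hearts of one group, pairs of members had correlations of either sign. After group means were subtracted 19 of the 28 pairs were above 0 and 9 at or below it. The highest correlation between 2 members was 0.55 (Nmnat1 and Sirt3) and the lowest was -0.46 (Sirt2 and Sirt7), over 45 arrays. Nampt had 0.50 with Nmnat3, 0.45 with Sirt2, 0.42 with Nmnat1 and -0.31 with Sirt7. Some hearts lay at the edge of their group for many members. RW-MS 7 was the lowest of its group for 5 of the 8 genes (Nampt, Nmnat1, Nmnat3, Sirt2, Sirt3) and the highest for 2 (Sirt1, Sirt7). DIO-SC 2, a heart in air, was the lowest for 4 (Nmnat1, Nmnat3, Sirt2, Sirt3) and the highest for 2 (Sirt1, Sirt7). RW-SS 7, the array with the sign of RNA breakdown, was the lowest for 4 (Nampt, Nmnat1, Sirt1, Sirt2) and the highest for 2 (Sirt7, Parp1). DIO-MS 6 was the highest of its group for 5 (Nampt, Nmnat1, Nmnat3, Sirt3, Parp1). RW-MS 7 was also the RW-MS array with the highest red cell and macrophage list means and the lowest heart muscle and endothelium list means.

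Nampt is also made by fat cells and white blood cells. The fat cell list (5 of 7 genes with a probe set) varied widely among hearts, from -2.20 to 1.99 around its average, and its correlation with Nampt after subtracting group means was -0.40. The neutrophil list (7 of 7 genes, 4 of them below the filter on dim genes) lay between 4.64 and 5.11 log2 units on all arrays and had a correlation of -0.06 with Nampt. The macrophage list had -0.60. The part of these cells in the differences of Nampt was not tested.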

How the data were processed

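The deposited table holds log2 expression per probe set from 1 Affymetrix mouse array per heart, made from 3 µg of total RNA labelled with biotin, per the labels' protocols. Per the submitters' processing notes the authors used RMA, with a version not given in the sources used here. Values ran from 2.12 to 14.77, with array medians from 6.20 to 6.24. Arrays have no read depth, and their number limits the precision. Of 22690 probe sets (64 controls), 20393 had 1 annotated gene, 691 several, and 1606 were not listed with one. Of the first, 20364 matched RefSeq by Entrez identifier, and 0 symbols changed. The probe set with the highest mean stood for a gene, and genes with a mean below 4.90, the lowest 25%, were not tested.

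Group means of 45 arrays were fitted with limma 3.58.1 (R 4.3.3, lmFit and eBayes, two-sided), with Benjamini-Hochberg adjustment over 9295 genes within each of 9 comparisons and a threshold of 0.05. An interaction is the effect in DIO minus that in RW mice. Python 3.11.15 with pandas 2.3.3 and matplotlib 3.10.9 made the tables and figures. The procedure was tested on simulated data. No batch is named in the labels. The members, lists and naming rule were chosen with earlier results of these data known. All listed genes could be named, genes of the NAD list past the threshold up to 4 a comparison by smallest adjusted p, the 5 most and 3 least correlated with Nampt, and a panel of clock genes (Arntl, Clock, Per2, Dbp, Nr1d1) and sirtuin partners (Ppargc1a, Foxo1, Foxo3, Sod2).
The alternatives were testing with dim genes kept in, averaging a gene's probe sets or testing each alone, trend and robust variance, array weights, the compared groups alone, a further quantile normalization, a replicate block, atrial or red cell covariates, and arrays left out singly or in sets.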

Additional observations from a re-analysis of the deposited data

Results flagged for a closer look

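Of 48 sets of values (8 genes in 6 groups), 8 held 1 heart whose gap to the nearest other heart, divided by the range of its group, exceeded the critical value of Dixon's test, which by its construction marks about 1 in 20 sets by chance. Nmnat1 was 7.07 in DIO-SS 6 (nearest other heart 7.15) and 7.32 in DIO-MS 6 (nearest 7.15). Sirt2 was 9.67 in DIO-SS 2 (nearest 9.58) and 9.35 in RW-MS 7 (nearest 9.52). Sirt3 was 8.90 in DIO-SS 1 (nearest 8.78) and 8.45 in RW-SC 3 (nearest 8.74). Sirt7 was 6.71 in DIO-SS 6 (nearest 6.56) and 7.05 in RW-MS 7 (nearest 6.61).

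The sidestream effect differed between the diets by the interaction test, as DIO minus RW on the log2 scale, for 2 members and for 5 genes of the NAD list. The values were 0.32 for Nmnat1, 0.39 for Sirt3, -0.59 for Nt5e, -0.37 for Haao, 0.24 for Parp8 and 0.17 for Parp2. The fifth gene, Tnks2, had 0.14 (limma adjusted p = 0.0473). Of all genes tested, 28.4% passed this interaction. Haao did not pass after a further quantile normalization (limma adjusted p = 0.0642), nor did Parp2 (0.428).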

How the results depend on the processing

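Under other settings 652 of the called values of named genes stayed called and 45 did not, and of those not called 154 stayed so, 13 passed and 2 changed sign, both of them Nampt in DIO-SC against RW-SC (0.05 with the mean of all probe sets, 0.02 after a further quantile normalization). With single arrays left out, 2497 stayed called and 68 did not. Each of the 45 arrays was left out for every comparison, so many refits left out an array of neither group compared. Most of these genes were named because they passed, and the called values include the descriptive Nampt differences. The tallies therefore cannot measure how stable a call is. In DIO-SS against DIO-SC, Nmnat1 lost its call in 12 refits and Sirt2 in 11. Over all settings run, Nampt in DIO-SS against DIO-SC ranged from 0.47 to 0.52 and Nmnat1 in RW-SS against RW-SC from -0.50 to -0.36. The sidestream interactions of Nmnat1 (0.26 to 0.36) and Sirt3 (0.28 to 0.44) kept their calls in all settings run. The cause of the changes was not tested.

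The number of members past the threshold moved as follows, given beside the genes in all that passed in the same setting. Among DIO groups the 8 members were counted, and where regular weight arrays enter the 7 other than Nampt. With the mean of all probe sets Nmnat1 was added for RW-MS against RW-SC (567 genes in all, 638 in the main fit). For DIO-MS against DIO-SC the number was 0 (315 genes in all, 423 in the main fit). With the atrial covariate Nmnat1 was also added for RW-MS against RW-SC (543 genes in all). With array weights the number was 3 for DIO-MS against DIO-SC, 5 for DIO-SS against DIO-SC and 2 for DIO-SS against DIO-MS. It was 3 for the sidestream interaction (Sirt7 added). Calls over all 9295 genes rose as well with array weights, in the same order from 423 to 714, 2960 to 3955, 237 to 1964 and 2641 to 3329. With RW-MS 2, 6 and 8 left out Sirt1 was added for RW-SS against RW-SC (2394 genes in all). Sirt1 was added there for DIO-SS against DIO-SC too, where the number was 4 (3096 genes in all). With no filter (3217 of 12394 genes in all), or with every probe set by itself, the number was 1 for DIO-SS against DIO-SC. A further quantile normalization left 0 for DIO-SC against RW-SC (1693 genes in all) and 2 for DIO-SS against DIO-SC (2083 genes in all). The mean of all probe sets and the red cell covariate each left 2 for DIO-SS against DIO-SC (2665 and 3048 genes in all). With the red cell covariate Sirt3 was lost for RW-SS against RW-SC (718 genes in all, 2288 in the main fit). With only the groups compared in the fit the number was 0 for RW-SS against RW-MS. Nmnat1 (limma adjusted p = 0.0949) and Sirt3 (0.0853) did not pass there, and 4 genes in all did. In that setting the number was 1 for DIO-SS against DIO-MS (298 genes in all). For DIO-SS against DIO-SC it was 4 (Sirt7 added, 3451 genes in all). With single arrays left out the counts ran from 0 to 2 for DIO-MS against DIO-SC, 1 to 4 for DIO-SS against DIO-SC and 0 to 2 for DIO-SS against DIO-MS. They ran from 0 to 1 for DIO-SC against RW-SC and from 2 to 3 for the sidestream interaction. For RW-MS against RW-SC Nmnat1 was added without RW-MS 2, RW-MS 4 or RW-SS 2. For RW-SS against RW-SC Sirt1 was added without any 1 of RW-MS 2, RW-MS 7, RW-SC 2, RW-SC 8, RW-SS 6 and RW-SS 7. DIO-SS against DIO-SC had 2 members, and Sirt2 did not pass, with a replicate block on the title number or on the animal number. Hearts that share a number did not deviate together on average (mean correlation -0.003 and -0.019, single pairs from -0.558 to 0.467). Such a mean over all genes cannot settle whether the numbers pair hearts.

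Over all genes, a further quantile normalization changed the split of calls from 2140 higher and 820 lower to 1074 and 1009 for DIO-SS against DIO-SC, from 643 and 1240 to 863 and 830 for DIO-SC against RW-SC, and from 1700 and 941 to 661 and 893 for the sidestream interaction. Array weights raised the calls for DIO-SS against DIO-MS from 237 to 1964.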
